A study of Mus musculus with 20 samples.

Results

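The comparison set hearts of old mice fed alpha-tocopherol against hearts of old mice on the control diet. It took the 5 arrays labelled as old hearts with alpha-tocopherol and the 5 arrays of old controls, 10 of the 20 arrays in the series. Arrays were chosen by these labels alone. All 10 animals were male mice 30 months of age, housed singly, from a cross of the B6 and C3H strains. The labels call 8 of them first-generation (F1) hybrids and give old controls 1 and 4 as hybrids with no F1. The supplemented diet held 1000 mg/kg of alpha-tocopherol and was given from 15 months of age, and the other old mice received the control diet. The remaining 10 arrays, 5 young controls at 5 months and 5 old mice fed 500 mg/kg each of alpha- and gamma-tocopherol, entered the estimate of the spread. Each animal gave 1 heart, 1 polyadenylated RNA sample and 1 oligonucleotide array, so the replicates are animals.

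Alpha-tocopherol is the form of vitamin E that the liver protein Ttpa selects for release into the blood, where it travels on lipoproteins. Lipoprotein lipase and lipoprotein receptors bring it into tissues. In membranes it stops the chain of lipid peroxidation by giving up a hydrogen atom to lipid radicals. Superoxide dismutases, catalase, glutathione peroxidases and glutathione transferases work beside it on other oxidants. In cultured cells it is also known to inhibit protein kinase C.

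Values are deposited intensities, and differences are alpha-tocopherol minus old control on the log2(intensity + 58) scale, given ± the standard error of the fit with 5 animals per group. A gene is said to rise, fall or be called where its adjusted p was below 0.05 (limma, Benjamini-Hochberg over 7453 tested probe sets). Precision is limited by the number of arrays, and the median standard error was 0.172 over 5663 named genes. The RNA came from tissue that holds many cell types, so fewer cells of a type and less RNA per cell cannot be told apart. Heart muscle markers were the brightest marker list on all 10 arrays, at a summed intensity of 1004883 to 1128179 in controls and 1154494 to 1358286 with alpha-tocopherol.

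The arrays of the 2 groups differed in the bacterial hybridization controls, which are not heart transcripts, and in 18S ribosomal RNA. The bacterial hybridization controls averaged 12.55 to 12.92 on the log2 scale on control arrays and 13.32 to 13.78 on alpha-tocopherol arrays. The 18S ribosomal RNA probe sets read 10.16 to 11.23 in controls and 12.21 to 12.74 with alpha-tocopherol, although the RNA had been purified for poly(A) tails. Neither measure overlapped between groups (exact two-sided permutation p = 0.00794 each, the smallest that 5 against 5 arrays allow, and 0.0198 after Benjamini-Hochberg adjustment over 5 measures). The array median differed by 0.0137 (exact permutation p = 0.54) and the actin 3' minus 5' signal by -0.0575 (exact permutation p = 0.389). Gapdh 3' minus 5' differed by -0.102 (exact permutation p = 1). Old control 3 stood apart there at 1.21, and without it the difference was 0.166 (exact permutation p = 0.0159).

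A class of probe sets moved with the group as well. Probe sets whose names end in _r_at are those for which the manufacturer dropped some of its probe selection rules. The mean level of the 385 tested ones was 10.41 to 10.58 on control arrays and 10.84 to 10.99 on alpha-tocopherol arrays. Arrays of mice fed both tocopherols lay between, at 10.68 to 10.80. The other 7068 tested probe sets averaged 10.74 to 10.77 in controls and 10.68 to 10.74 with alpha-tocopherol. Of the _r_at probe sets 34.0% were called higher and 3.38% lower, against 7.57% and 13.3% of the others. This class was singled out after its values were seen, and its part in the result for a single gene was not tested. A gene read from such a probe set is marked as one below.

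**Figure D1:**
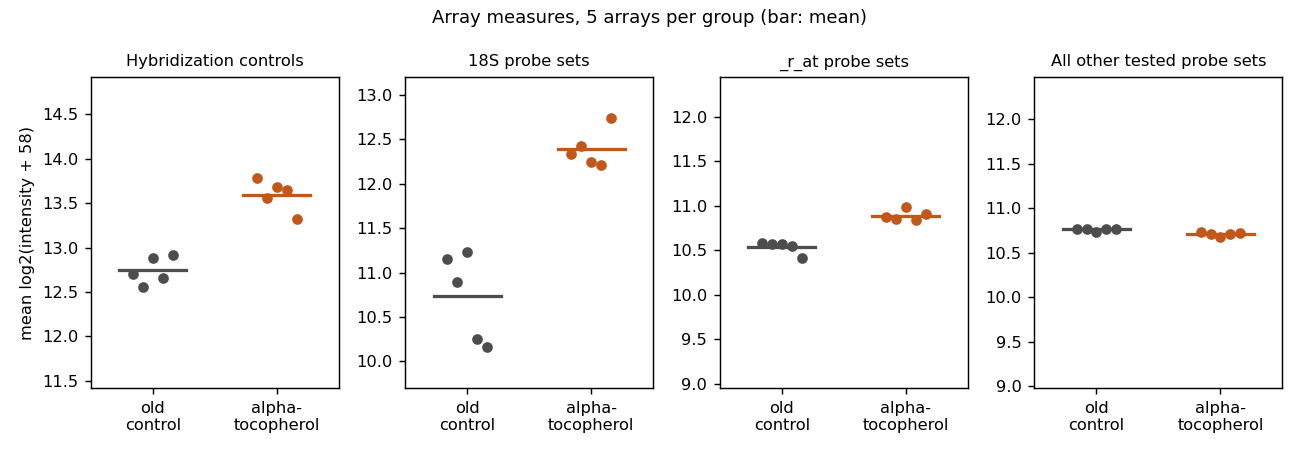
Mean log2(intensity + 58) on each array of the bacterial hybridization controls, the 18S probe sets, the _r_at probe sets and all other tested probe sets, for 5 old control and 5 alpha-tocopherol arrays; dots are arrays and bars group means, and all panels span the same log2 range. The groups do not overlap in the first 3 panels.

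In all, 1619 of 7453 probe sets were called (21.7%), 666 higher (8.94%) and 953 lower (12.8%). By gene, with each gene read at its brightest tested probe set, 492 of 5663 rose (8.69%) and 774 fell (13.7%). These percentages are the background for the gene lists below. The median difference over all genes was -0.038. Of the called genes, 63 rose and 106 fell by more than 1 on the log2 scale. All 5 alpha-tocopherol arrays lay above all 5 controls in 373 genes (6.59%) and below them in 581 (10.3%). Without genes read from _r_at probe sets the shares were 7.57% higher and 14.1% lower. With tested probe sets split into 3 equal classes by mean level, in the brightest class 14.4% were called higher and 17.9% lower, against 4.31% and 7.41% in the dimmest.

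With the hybridization level as a covariate 33 of the 492 higher genes and 75 of the 774 lower genes were still called, and 2.03% of all genes. With the 18S level these were 29 and 79, and 2.01% of all genes. Called in each of those fits were 10 higher and 27 lower genes. With both levels in one limma fit 0 of 7453 probe sets were called, and 657 had an unadjusted p below 0.05. In the single-covariate fits, whose levels do not overlap between the groups, errors grew more than differences shrank. The median difference of the 492 higher genes was 0.57 in the fit without covariates, 0.56 with the hybridization level and 0.48 with the 18S level, and their median standard error 0.146, 0.253 and 0.223. For the 774 lower genes the medians were -0.62, -0.62 and -0.53, and the standard errors 0.149, 0.26 and 0.23. The direction was the same in 482 and 485 of the higher and in 770 and 771 of the lower genes. A call lost with a covariate does not by itself show a smaller difference. The difference was as large as without covariates in 217 of the higher and 389 of the lower genes with the hybridization level. With the 18S level this held for 150 and 238. The lists below moved on arrays that also differed in these levels. Without overlap between the groups, the 2 covariate fits cannot separate the diet from the levels, and the part of the levels in each list was not tested further.

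Of 17 genes of superoxide and peroxide removal 3 rose and 1 fell, with a median of 0.04. Sod1, the cytosolic copper and zinc superoxide dismutase, had the largest change of the list. The 5 old controls read intensities of 13214, 12248, 14704, 7142 and 9457, and the alpha-tocopherol arrays 61480, 59551, 58345, 56887 and 56123. The groups were far apart, and old controls 4 and 5, with the lowest Sod1, also had the lowest 18S levels (10.25 and 10.16). Sod1 rose by 2.40 ± 0.27, a factor of 5.29 (limma adjusted p = 5.2e-06). With the 18S covariate it was 1.06 ± 0.19 (limma adjusted p = 0.0078) and with the hybridization covariate 2.52 ± 0.47 (limma adjusted p = 0.011).

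The stretch just upstream of the Sod1 start is shown because Sod1 had the largest change of its list. It holds a match to TGACNNNGC, the core of the antioxidant response element through which Nrf2 acts, on the opposite strand. The capitals mark the match, which begins 56 bases before the start, in the RefSeq window at chr16:90220676-90220761 (GRCm38.p6, plus strand).
Sod1: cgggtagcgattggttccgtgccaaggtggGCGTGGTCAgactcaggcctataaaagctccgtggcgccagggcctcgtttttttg
Searched on both strands, that motif occurs in 12.4% of 32851 RefSeq promoter windows of 300 bases. Counted by gene, over genes with at least 1 window, it occurs in 17.5% of called-higher and 18.8% of called-lower genes. The share was 16.6% of genes not called and 17.0% of all tested genes.

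Among the other antioxidant enzymes the differences were small. Catalase (Cat), which breaks down hydrogen peroxide, read 3038, 3475, 3327, 3330 and 3136 in controls and 4069, 3826, 5318, 4626 and 4325 with alpha-tocopherol. It rose by 0.43 ± 0.12 without overlap (limma adjusted p = 0.011), while its second probe set differed by 0.05 ± 0.15 and was not called. The third gene called higher in the list was Ccs, the copper chaperone of Sod1 (0.48 ± 0.15), which is read from an _r_at probe set and has another probe set of opposite sign. It lost its call without old control 5 or alpha-tocopherol animal 3 or 4 (limma adjusted p up to 0.083). Thioredoxin (Txn1), a disulfide reductant, fell by 0.36 ± 0.12 (limma adjusted p = 0.040). Its call was lost in 6 of 10 fits that left out 1 animal, with adjusted p up to 0.0988. The mitochondrial dismutase Sod2 differed by -0.13 ± 0.12 and did not pass the test (limma adjusted p = 0.47).

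Of 20 glutathione genes 5 rose and 0 fell, with a median of 0.24 and against 8.69% higher over all genes. All 5 were glutathione transferases, which couple glutathione to reactive compounds: Gstm1, Gsta2, Gstm3, Gstp1 and Gstm5, the last named after its value was seen. Gstm1 read 24199, 27756, 24316, 25975 and 26496 in controls. With alpha-tocopherol it read 44722, 42618, 48028, 39549 and 44241. The groups did not overlap, and Gstm1 rose by 0.77 ± 0.09 (limma adjusted p = 1.4e-05). Gsta2 rose by 0.57 ± 0.15 and Gstm3 by 0.44 ± 0.11. Transferases of the mu class are similar in sequence, and the Gstm1 and Gstm3 probe sets are of the _f_at kind, which can read several family members. With either covariate Gstm1 was the only called gene of this list, whose median was 0.21 with the hybridization and 0.31 with the 18S level. Without alpha-tocopherol animal 5 the list held 3 higher genes, and Gstp1 lost its call without that animal or old control 4 or 5 (limma adjusted p up to 0.0818).

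Genes that transport or metabolise tocopherol showed 1 call in 13 tested. This was lipoprotein lipase (Lpl), higher by 0.33 ± 0.12 (limma adjusted p = 0.047). It did not pass after quantile normalization (0.14, adjusted p = 0.396) and lost its call in 7 of 10 fits that left out 1 animal (adjusted p up to 0.12). In the list of Nrf2 and quinone reductase genes 1 of 14 rose and 2 fell. Carbonyl reductase Cbr1 fell by 1.18 ± 0.28 (limma adjusted p = 0.0043), from 738 to 1315 in controls to 170 to 787 with alpha-tocopherol, ranges that overlap.

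**Figure D2:**
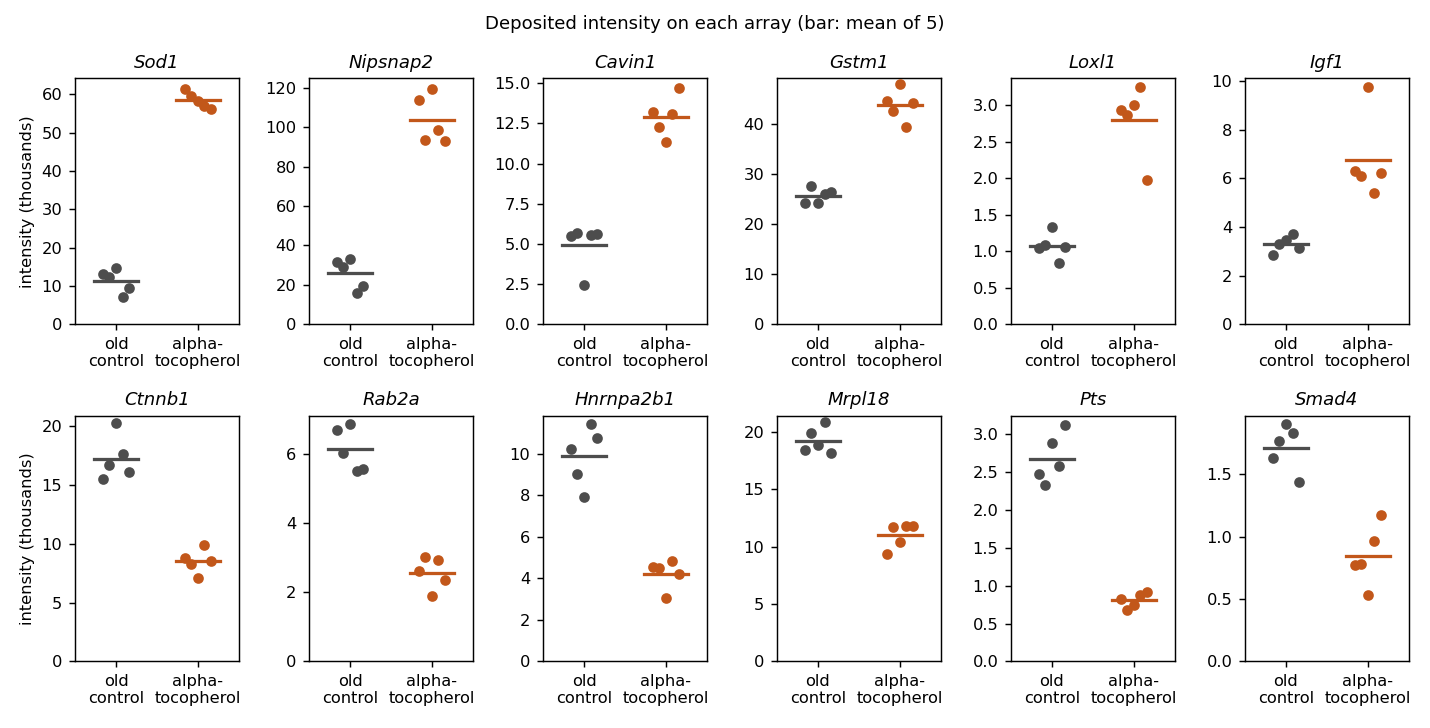
Deposited intensity, in units of 1000, on each of 5 old control and 5 alpha-tocopherol arrays for 6 genes called higher (top row) and 6 called lower (bottom row); dots are arrays, bars group means, and each axis starts at 0. The groups do not overlap in any of the 12 genes, and old control 3 lies apart in Cavin1 (2459, against 5512 to 5674 in the other controls).

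The genes called with each covariate in turn belonged to many pathways. Of the 10 higher ones, Nipsnap2, a mitochondrial protein, read 31682, 28823, 33037, 15871 and 19467 in controls and 113777, 93727, 119595, 98544 and 93215 with alpha-tocopherol. The groups did not overlap, and again old controls 4 and 5 were lowest. Nipsnap2 rose by 2.06 ± 0.24, and by 0.94 ± 0.22 with the 18S covariate (limma adjusted p = 0.029). Cavin1, which shapes caveolae, rose by 1.43 ± 0.19, the galectin Lgals4 by 1.21 ± 0.12 and the elastin cross-linking enzyme Loxl1 by 1.34 ± 0.15. Lgals4 read 2869, 2955, 2457, 2525 and 2771 in controls and 6404, 5692, 5109, 7256 and 7630 with alpha-tocopherol. This was the smallest adjusted p among higher genes named here (1.6e-06, limma). The volume-regulated channel subunit Lrrc8a rose by 1.10 ± 0.13, pyridoxal kinase Pdxk by 0.70 ± 0.11, Tmem250-ps by 1.37 ± 0.15 and the zinc transporter Slc39a4, on an _r_at probe set, by 1.00 ± 0.14. Second, dimmer probe sets of Cavin1 (0.44 ± 0.18) and Slc39a4 (0.07 ± 0.32) were not called. Sod1 and Gstm1 complete these 10.

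Of the 27 lower genes called with each covariate, the 10 with the smallest p are named. Beta-catenin (Ctnnb1), which links cadherins to the cytoskeleton and carries Wnt signals, read 15496, 16728, 20231, 17632 and 16136 in controls and 8821, 8266, 7117, 9937 and 8551 with alpha-tocopherol. It fell by 1.01 ± 0.10 without overlap (limma adjusted p = 1.6e-06). The biopterin enzyme Pts read 2479, 2324, 2881, 2582 and 3120 in controls and 826, 674, 740, 873 and 911 with alpha-tocopherol, a fall by 1.66 ± 0.16. The F-box protein Fbxo9 fell by 1.09 ± 0.11, the chromatin protein Hmgb3 by 0.90 ± 0.09, the ubiquitin-binding Zfand5 by 1.03 ± 0.12 and Clip4, of a family that binds microtubule ends, by 1.28 ± 0.15. The other 4 are the RNA-binding Hnrnpdl (-1.09 ± 0.13), the mitochondrial ribosome subunit Mrpl18 (-0.81 ± 0.10) and the trafficking GTPases Rab1a (-0.92 ± 0.11) and Rab2a (-1.25 ± 0.15).

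Endoplasmic reticulum (ER) chaperones and genes of the unfolded protein response gave 7 higher and 1 lower gene of 23 tested, with a median of 0.24. The chaperone Hsp90b1 (Grp94) read 5396, 5529, 4222, 6268 and 6372 in controls and 7163, 13427, 8714, 9716 and 7953 with alpha-tocopherol. The groups did not overlap, and alpha-tocopherol animal 2 was highest. Hsp90b1 rose by 0.73 ± 0.16, Manf, a secreted ER stress protein, by 0.93 ± 0.23, and asparagine synthetase Asns, an ATF4 target, by 0.59 ± 0.13. Pdia3, a disulfide isomerase, read 492, 521, 709, 1839 and 2512 in controls and 2611, 3206, 2226, 3085 and 2239 with alpha-tocopherol. Old controls 4 and 5 lay near or within the supplemented range, and Pdia3 rose by 1.38 ± 0.36 (limma adjusted p = 0.0083). Without alpha-tocopherol animal 2 the list held 4 higher genes, and without the 1 member on an _r_at probe set 6 rose. With the hybridization covariate 0 of the 23 were called at a median of 0.16, and with the 18S covariate 1 at a median of 0.24.

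Some promoters of these genes hold a known regulatory sequence, the ER stress response element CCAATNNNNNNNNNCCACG, to which NF-Y and ATF6 bind. On either strand it occurs in 39 of 32851 RefSeq promoter windows (0.119%). Counted by gene, it occurs in 6 of the 21 listed ER genes that have a window, against 9 of 4533 tested genes with a window (0.199%). Of the 6 called-higher ER genes with a window, 2 hold it, Hsp90b1 with 2 matches and Creld2 with 1. It also stands before Hspa5, Canx, Dnajc3 and Pdia6, none of which was called. The stretches below show it in capitals for both called genes and for Hspa5 (BiP), the best known gene with this element. They run at chr10:86705503-86705686 (minus strand), chr15:88819490-88819609 (plus strand) and chr2:34771995-34772089 (plus strand) of GRCm38.p6, from RefSeq.
Hsp90b1: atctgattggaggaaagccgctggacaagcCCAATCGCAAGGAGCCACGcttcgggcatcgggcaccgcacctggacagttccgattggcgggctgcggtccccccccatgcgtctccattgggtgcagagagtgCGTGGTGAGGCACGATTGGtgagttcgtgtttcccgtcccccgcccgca
Creld2: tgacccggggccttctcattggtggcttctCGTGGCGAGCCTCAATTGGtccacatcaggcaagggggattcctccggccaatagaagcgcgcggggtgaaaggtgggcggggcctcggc
Hspa5: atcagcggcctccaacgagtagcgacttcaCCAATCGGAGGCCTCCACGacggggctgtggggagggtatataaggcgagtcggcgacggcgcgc
Creld2 rose by 0.52 ± 0.17 and Hspa5 differed by 0.17, not called; these genes were picked for the motif after their values were seen.

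Of 24 heat shock proteins of the cytosol 2 rose and 2 fell, with a median of 0.03, against 8.69% higher and 13.7% lower over all genes. The lower count was 1 without old control 2 or alpha-tocopherol animal 3. The chaperone Hsp90aa1 rose by 1.17 ± 0.26, from 3248 to 5243 in controls to 6401 to 14695 with alpha-tocopherol. Hspa8, the constitutive Hsp70, rose by 0.50 ± 0.11. The chaperonin subunit Cct8 fell by 1.05 ± 0.21, from 1871 to 2583 to 727 to 1367, and Hsp90aa1 and Cct8 thus moved apart without overlap between groups.

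Mitochondrial ribosome and protein import genes had the largest share of lower genes among the lists with at least 20 tested genes. Of 46, 17 fell and 1 rose, with a median of -0.23, against a background of 13.7% lower. In 13 of the 46 all alpha-tocopherol arrays lay below all controls, against 10.3% of all genes. The ribosome subunit Mrps22 read 1088, 901, 1086, 1102 and 870 in controls and 310, 482, 559, 285 and 424 with alpha-tocopherol. It fell by 1.21 ± 0.20 (limma adjusted p = 0.00023). Mrps34 fell by 0.62 ± 0.12, Mrpl39 by 0.69 ± 0.14 and Hspe1, the cofactor of the mitochondrial chaperonin, by 0.54 ± 0.11. Mrpl18, which the list does not include, fell as given above from 18180 to 20804 in controls to 9324 to 11765. Leaving out 1 animal gave 12 to 16 lower genes, and leaving out old controls 1 and 4 gave 11. With the hybridization covariate 1 was called lower at a median of -0.22, and with the 18S covariate 2 at a median of -0.18.

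**Figure D3:**
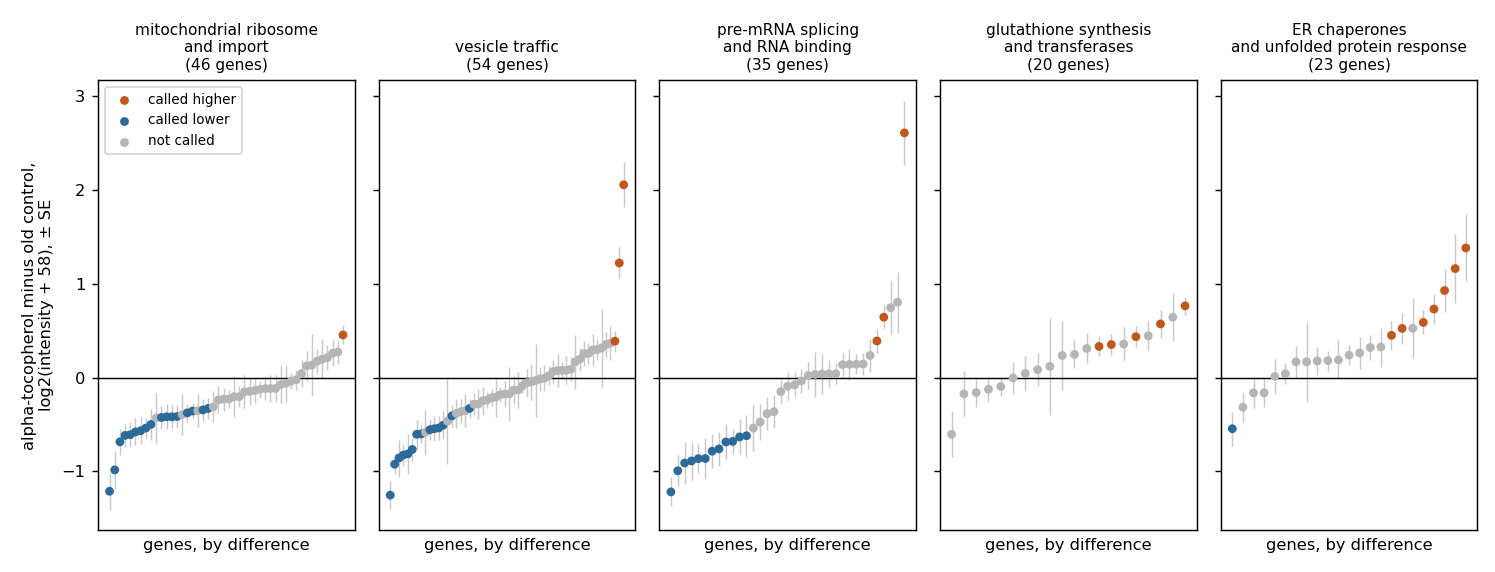
Difference (alpha-tocopherol minus old control, log2(intensity + 58), ± SE) of every tested member of 5 gene lists, ordered by size within each list; colours mark genes called higher, called lower or not called. Most called members of the first 3 lists lie below 0 and most of the last 2 above it.

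Respiratory chain genes were called in both directions, to be read against 8.69% higher and 13.7% lower over all genes. Complex I genes rose in 3 of 27 cases and fell in 2 (3 and 5 after quantile normalization), complexes II and III in 1 and 3 of 13, cytochrome c oxidase in 2 and 0 of 13, and ATP synthase in 1 and 0 of 12. The complex I subunits Ndufb8 (0.63 ± 0.09), Ndufa7 (0.66 ± 0.13) and Ndufb7 (0.52 ± 0.11) rose, whereas Ndufab1, an acyl carrier protein that is also a complex I subunit, fell by 0.48 ± 0.12. Ndufb8 read 48678, 49082, 47037, 36911 and 39979 in controls and 68994, 67109, 76488, 62794 and 65243 with alpha-tocopherol, without overlap. The complex III core protein Uqcrc2 rose by 0.43 ± 0.10. The muscle form of a cytochrome c oxidase subunit, Cox6a2, rose by 0.45 ± 0.11 but was not called after quantile normalization (0.15, limma adjusted p = 0.103). The lower count for complexes II and III was 0 without old control 1, 2 or 5 or alpha-tocopherol animal 3, and 1 without old control 4 or alpha-tocopherol animal 5. It was also 0 without old controls 1 and 4 together.

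Genes of fuel use were called in both directions. Of 27 fatty acid oxidation genes 7 rose and 2 fell, with a median of 0.05, and after quantile normalization 3 rose. Without alpha-tocopherol animal 3 only 1 of these genes was lower. The acyl-CoA thioesterase Acot1 rose by 0.84 ± 0.20, the enoyl-CoA isomerase Eci1 by 0.47 ± 0.11 and the thiolase Acaa2 by 0.45 ± 0.11. Etfa, which passes electrons from these dehydrogenases to the respiratory chain, fell by 0.46 ± 0.10. Acaa2 was 0.20 after quantile normalization (limma adjusted p = 0.0677), and Acot1, Eci1 and Etfa kept their calls there.

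In the citrate cycle list 3 of 22 rose and 4 fell, whereas 1 rose and 7 fell after quantile normalization, and the lower count was 2 without alpha-tocopherol animal 3 or 5 or old control 1, 2 or 5. The 2-oxoglutarate dehydrogenase subunit Ogdh rose by 0.41 ± 0.10 (0.24 and not called after quantile normalization, limma adjusted p = 0.0505) and the succinyl-CoA ligase subunit Sucla2 fell by 0.47 ± 0.09. Glucose uptake and glycolysis genes fell in 3 of 24 cases and rose in 1. Neither share was above the 13.7% lower and 8.69% higher over all genes. The insulin-responsive glucose transporter Slc2a4 (Glut4) read 12597, 14954, 11829, 11986 and 13563 in controls and 8425, 9308, 9182, 8997 and 8674 with alpha-tocopherol. It fell by 0.53 ± 0.09 without overlap, as did phosphoglycerate kinase Pgk1 (-0.42 ± 0.11) and lactate dehydrogenase Ldha (-0.45 ± 0.11). Aldolase Aldoa rose by 0.43 ± 0.11, and its second probe set differed by 0.14 ± 0.12, not called. The mitochondrial adenylate kinase Ak4 fell by 1.24 ± 0.19, from 1634 to 2143 in controls to 596 to 948, and its dimmer probe set differed by -0.34 ± 0.25, not called. The triglyceride lipase Pnpla2, listed among adipocyte markers but active in heart muscle, rose by 1.11 ± 0.14, from 12252 to 25818 to 32205 to 37568. Intensities of Pnpla2 did not overlap between groups, and old control 3 was the highest control.

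Contractile genes were called mostly higher, and for several the call or the direction depended on scaling. Of 9 thick filament genes 3 rose and 0 fell, and of 10 thin filament genes 3 rose and 3 fell. Without old control 4 or 5 or alpha-tocopherol animal 3 only 1 thin filament gene was lower, and without old controls 1 and 4, 0 were lower and 1 thick filament gene was higher. After quantile normalization 1 thick filament gene rose and 1 fell. Slow myosin Myh7 read 24944, 38368, 29415, 37528 and 21637 in controls and 49982, 64682, 64675, 59072 and 57598 with alpha-tocopherol. It rose by 0.99 ± 0.20 without overlap (limma adjusted p = 0.0014). Of 17 cardiomyocyte markers 5 rose and 1 fell, while after quantile normalization 0 rose and 3 fell. Under that scaling the ventricular light chain Myl2 went from 0.50 ± 0.13 to 0.05 (limma adjusted p = 0.584) and troponin T (Tnnt2) from 0.33 ± 0.10 to 0.08 (limma adjusted p = 0.406). Troponin I (Tnni3) went from 0.26 ± 0.09 (limma adjusted p = 0.036) to -0.049 (limma adjusted p = 0.579). The count of higher cardiomyocyte markers was 2 without old control 4 or alpha-tocopherol animal 3, and 3 without alpha-tocopherol animal 1. It was 1 without old controls 1 and 4. Alpha myosin heavy chain Myh6 (0.12 ± 0.11) and cardiac actin Actc1 (0.12 ± 0.10) did not pass the test, and both were below 0 after quantile normalization.

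Further genes of the muscle cell were called in both directions. The Z-disc protein Myoz1 rose by 1.77 ± 0.40, though alpha-tocopherol animal 4, at an intensity of 182, lay within the control range of 167 to 267 and the other 4 lay at 797 to 1897. Skeletal actin Acta1, which the stressed heart re-expresses, fell by 1.13 ± 0.33 (limma adjusted p = 0.019) and lost its call without alpha-tocopherol animal 3 (adjusted p = 0.0651). Beta-sarcoglycan Sgcb, of the membrane complex that anchors dystrophin, fell by 0.53 ± 0.13. The natriuretic peptides Nppa (-0.31 ± 0.13, limma adjusted p = 0.10) and Nppb (0.68 ± 0.26, limma adjusted p = 0.062) did not pass. Nppb passed in a fit of the 10 arrays alone (limma adjusted p = 0.0226).

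Calcium cycling genes fell in 6 of 20 cases and rose in 0, with a median of -0.21. Fkbp1a, which stabilises the ryanodine receptor, read 13430, 13636, 14297, 13049 and 12680 in controls and 10407, 9166, 7718, 8604 and 9013 with alpha-tocopherol. It fell by 0.58 ± 0.10 without overlap (limma adjusted p = 0.00034). The calcium channel subunit Cacna2d1 fell by 1.52 ± 0.34, from 1227 to 2185 in controls to 109 to 958. The sodium-calcium exchanger Slc8a1 fell by 0.58 ± 0.14 at its bright probe set, while its dim one differed by 0.12 ± 0.31 and was not called. The ryanodine receptor Ryr2 (-0.27 ± 0.16) did not pass the test (limma adjusted p = 0.23). Without old control 5, 3 genes of this list were lower. With the hybridization covariate 0 were called lower at a median of -0.34, and with the 18S covariate 1 at a median of -0.18. The potassium channel subunit Kcnj8, found in vessel walls and heart muscle, fell by 0.60 ± 0.13.

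**Figure D4:**
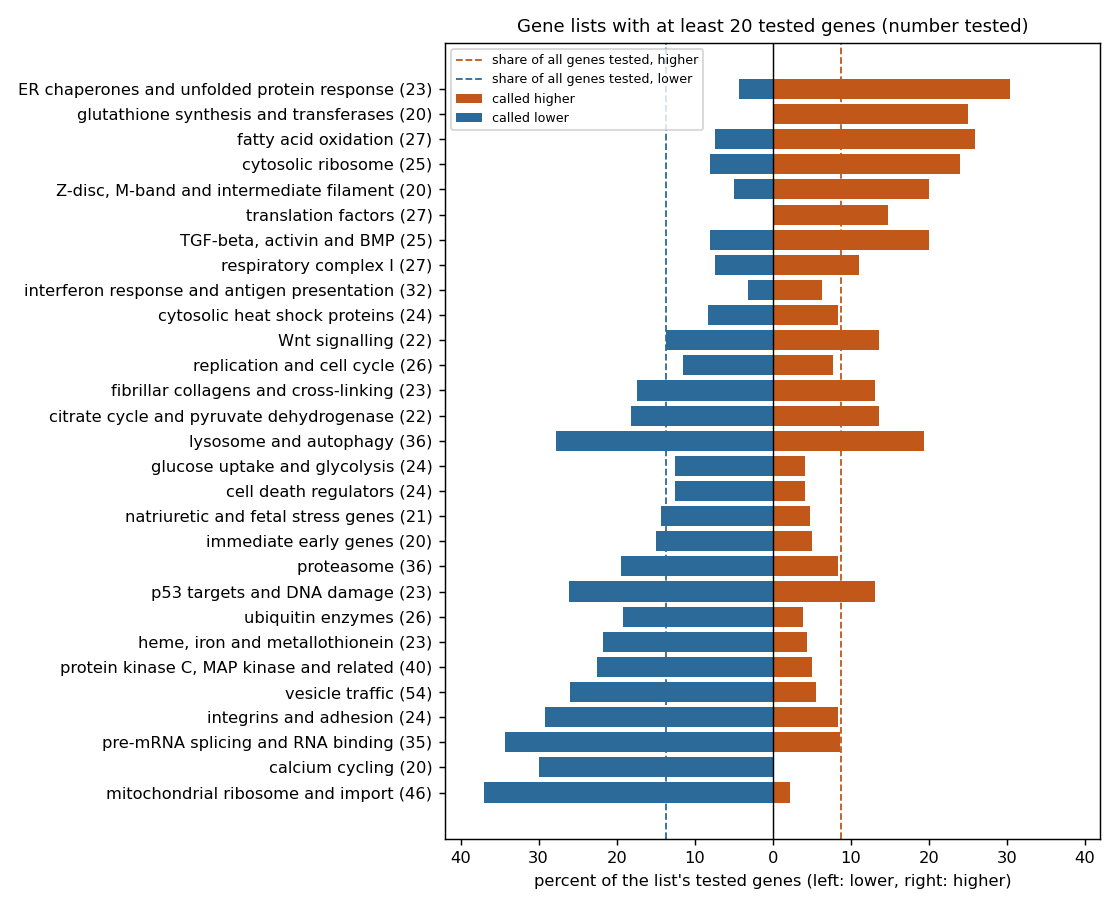
Percent of the tested genes of each pathway list that were called lower (left) or higher (right), for lists with at least 20 tested genes, with the number tested in parentheses; dashed lines mark 8.69% higher and 13.7% lower, the shares over all 5663 genes. Mitochondrial ribosome and import, splicing and calcium cycling have the largest lower shares, and ER chaperones the largest higher share.

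Genes of vesicle traffic fell in 14 of 54 cases and rose in 3, with a median of -0.18. The small GTPase Rab2a, which acts between ER and Golgi, read 6715, 6046, 6868, 5509 and 5569 in controls and 2610, 3029, 1908, 2929 and 2345 with alpha-tocopherol. Rab1a, of the same route, read 2959, 3018, 2645, 3114 and 3297 in controls and 1596, 1838, 1369, 1492 and 1507 with alpha-tocopherol. In neither did the groups overlap. Rab5a, of early endosomes, fell by 0.83 ± 0.12. With the hybridization covariate 4 genes of this list were called lower and 2 higher at a median of -0.17, and with the 18S covariate 3 and 1 at a median of -0.11. Nipsnap2 was among the 3 higher genes, and without old control 5 there were 5.

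Lysosome and autophagy genes moved both ways, 7 higher and 10 lower of 36, with a median of -0.18. Without old controls 1 and 4, the pair labelled differently, 5 were lower. The lysosomal protease legumain (Lgmn) read 2719, 2464, 2840, 2664 and 2996 in controls and 1835, 1454, 1089, 1616 and 1441 with alpha-tocopherol, and fell by 0.87 ± 0.13. The tetraspanin Cd63 fell by 0.61 ± 0.11. Acid alpha-glucosidase Gaa, which degrades lysosomal glycogen, rose by 0.49 ± 0.10, and the autophagy protein Gabarapl2 by 0.36 ± 0.08. The groups did not overlap in any of these genes.

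Proteasome genes fell in 7 of 36 cases and rose in 3, with a median of -0.10. The core subunit Psma4 read 8998, 9069, 9233, 9935 and 10021 in controls and 5709, 5900, 5638, 5456 and 4385 with alpha-tocopherol. It fell by 0.80 ± 0.10 (limma adjusted p = 2.1e-05). The regulatory subunits Psmd6 (-0.55 ± 0.09) and Psmd14 (-0.94 ± 0.18), the latter a deubiquitinase, also fell. The catalytic subunit Psmb5 fell by 0.64 ± 0.09 at its bright probe set and differed by 0.46 ± 0.25, not called, at its dim one. Of 26 ubiquitin enzymes 5 fell and 1 rose, with the conjugating enzymes Ube2e1 (-0.88 ± 0.20) and Ube2b (-0.32 ± 0.09) among them. Without alpha-tocopherol animal 3 or 5 the lower count was 3, and without old controls 1 and 4 it was 2.

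Splicing and RNA-binding genes fell in 12 of 35 cases and rose in 3, with a median of -0.09. Hnrnpa2b1, which binds and sorts nuclear RNA, read 10232, 9022, 7915, 11400 and 10766 in controls and 4540, 4473, 3062, 4809 and 4210 with alpha-tocopherol. It fell by 1.22 ± 0.15 without overlap (limma adjusted p = 1.8e-05). The serine- and arginine-rich splicing factor Srsf6 fell by 0.99 ± 0.16 and Hnrnpk by 0.86 ± 0.16. Leaving out 1 animal gave 11 or 12 lower genes, and leaving out old controls 1 and 4 gave 7. With either covariate 1 was called lower, at a median of 0.01 with the hybridization and -0.18 with the 18S level. Uhmk1, a kinase that phosphorylates splicing factors, rose by 2.61 ± 0.34, the largest increase among genes read at their brightest probe set. A second, dimmer Uhmk1 probe set differed by 0.23 ± 0.16 and was not called (limma adjusted p = 0.319). Intensities at the brighter one were 2176, 1508, 2207, 1431 and 1171 in controls and 11011, 10142, 13438, 10177 and 7828 with alpha-tocopherol. With the 18S covariate Uhmk1 was 1.18 ± 0.37 and not called (limma adjusted p = 0.10).

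Genes of cytosolic translation were called higher more than lower. Of 25 ribosomal protein genes 6 rose and 2 fell, with a median of 0.14, and 3 rose and 3 fell after quantile normalization. Without old controls 1 and 4, 3 ribosomal genes and 2 translation factors rose. Rps28 read 44413, 47819, 48848, 36173 and 36959 in controls and 70778, 71058, 80659, 63966 and 63422 with alpha-tocopherol, a rise by 0.71 ± 0.10. Rpl19 rose by 0.33 ± 0.08. Of 27 translation factors 4 rose and 0 fell, and 2 rose without old control 4 or alpha-tocopherol animal 3. Elongation factor Eef2 read 20560, 21344, 20217, 17607 and 20717 in controls and 26381, 29718, 28714, 28761 and 29248 with alpha-tocopherol, and rose by 0.51 ± 0.08. Rps28 and Eef2 were without overlap.

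Kinases were called lower more than higher, 9 against 2 of 40, with a median of -0.04. The lower count was 7 to 9 when 1 animal was left out, and the higher count 4 without old control 4 and 1 without several others, among them alpha-tocopherol animals 1, 2 and 5. The non-receptor tyrosine kinase Tnk2 read 499, 692, 593, 937 and 583 in controls and 102, 118, 130, 92 and 65 with alpha-tocopherol. It fell by 2.16 ± 0.29 without overlap (limma adjusted p = 2.8e-05). Protein kinase C alpha (Prkca), whose enzyme alpha-tocopherol is known to inhibit, read 1214, 613, 874, 898 and 702 in controls and 315, 559, 297, 428 and 511 with alpha-tocopherol. It fell by 0.94 ± 0.25 (limma adjusted p = 0.0095) and was not called with the hybridization (limma adjusted p = 0.14) or the 18S covariate (limma adjusted p = 0.39). The MAP kinase kinases Map2k1 (-0.74 ± 0.16) and Map2k5 (-0.62 ± 0.11) and the regulatory subunit of protein kinase A, Prkar1a (-0.45 ± 0.09), also fell. Protein kinase C delta (Prkcd) differed by -0.02 ± 0.13 at its brighter probe set and by -0.08 ± 0.12 at a dimmer one, and neither was called.

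In the TGF-beta family 5 of 25 rose, 1 of them on an _r_at probe set, and 2 fell, and 3 rose without old controls 1 and 4. The 2 lower genes are the intracellular carriers of the signal, Smad4 (-1.01 ± 0.16) and Smad2 (-0.76 ± 0.16). Smad4 read 1628, 1766, 1902, 1831 and 1442 in controls and 772, 779, 532, 968 and 1172 with alpha-tocopherol. Smad2 read 1253 to 1777 in controls and 647 to 1006 with alpha-tocopherol, and neither gene overlapped between groups. The co-receptor Tgfbr3 rose by 0.65 ± 0.14. The activin receptor Acvr1b rose by 1.83 ± 0.47, from 117 to 435 to 593 to 1304.

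Insulin and IGF genes were called in both directions, 4 higher and 3 lower of 19. Igf1, a growth factor for heart muscle, read 2855, 3286, 3464, 3715 and 3146 in controls and 6306, 6089, 9771, 5379 and 6205 with alpha-tocopherol. It rose by 1.00 ± 0.15 without overlap (limma adjusted p = 8.7e-05), and alpha-tocopherol animal 3 was highest. The receptor Igf2r, which clears Igf2, rose by 0.70 ± 0.14. The binding protein Igfbp6 fell by 1.34 ± 0.30 with overlapping ranges, since alpha-tocopherol animal 1, at 1836, lay above the lowest control at 1724. The kinase Gsk3a fell by 0.36 ± 0.08. Of 24 integrin and adhesion genes 7 fell and 2 rose, with N-cadherin (Cdh2) at -0.58 ± 0.14 beside beta-catenin. Their lower count was 3 without old control 5, without alpha-tocopherol animal 1, or without old controls 1 and 4. It was 4 without old control 1 or 2 or alpha-tocopherol animal 2 or 3.

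Fibroblast markers were called lower more than higher, and matrix lists varied. Of 15 fibroblast markers 8 fell and 1, on an _r_at probe set, rose, with a median of -0.43. Their summed intensity overlapped, at 121502 to 134535 (median 125390) in controls and 96292 to 135496 (median 122853) with alpha-tocopherol. The higher marker was collagen Col1a2 (0.71 ± 0.11), whose dimmer probe set differed by -0.21 ± 0.22 and was not called. Among the defining fibroblast genes Lum, Pdgfra, Dpt and Tcf21 fell. The defining genes Col1a1 (0.06 ± 0.18) and Dcn (0.14 ± 0.15), the latter the brightest of them, were not called. A second Col1a1 probe set of similar brightness differed by -0.69 ± 0.25 and was not called either (limma adjusted p = 0.0513). Of 16 basement membrane genes 4 fell and 0 rose. Fibrillar collagens and cross-linking enzymes fell in 4 and rose in 3 of 23 cases, proteoglycans in 3 and 3 of 14 and matrix proteases in 1 and 1 of 11. Periostin (Postn), made by activated fibroblasts, read 2602, 2631, 2430, 7782 and 3734 in controls and 1741, 1142, 933, 875 and 1480 with alpha-tocopherol. It fell by 1.49 ± 0.27 without overlap, with old control 4 the highest. Collagen III (Col3a1) fell by 1.39 ± 0.26, although alpha-tocopherol animal 5, at 2893, lay within the control range of 2659 to 3682 and the other 4 lay at 703 to 1314. The collagen-binding proteoglycans lumican (Lum, -0.95 ± 0.16) and osteoglycin (Ogn, -0.93 ± 0.19) fell, as did Col15a1 (-1.01 ± 0.22), Fbln2 (-0.55 ± 0.14) and the metalloproteinase inhibitor Timp2 (-0.75 ± 0.13). The second Ogn probe set differed by -0.45 ± 0.23 and was not called. Without old control 5 the fibroblast markers lower were 5. The membrane proteoglycan syndecan 4 (Sdc4), which joins matrix to focal adhesions, rose by 1.72 ± 0.24, from 417 to 827 to 1762 to 2460. With the 18S covariate Sdc4 was 0.72 ± 0.25 and not called (limma adjusted p = 0.13).

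Markers of vessel, muscle wall and immune cells were also lower in part. Of 17 endothelial markers 5 fell and 0 rose, and their summed intensity was 49022 to 56793 in controls and 40349 to 45523 with alpha-tocopherol. VE-cadherin (Cdh5) fell by 0.52 ± 0.14, Cd34 by 1.02 ± 0.16 and claudin 5 (Cldn5) by 0.95 ± 0.23. A second Cd34 probe set of similar brightness differed by -0.15 ± 0.18 and was not called. Besides Cdh5, the defining endothelial genes Pecam1 (-0.39 ± 0.14), Kdr (-0.25 ± 0.17) and Tek (0.06 ± 0.16) were not called. Without old control 4 or alpha-tocopherol animal 1 the lower endothelial count was 3, as it was without old controls 1 and 4 together. Of 11 smooth muscle and pericyte markers 3 fell and 1 rose, and 5 fell without old control 3 or alpha-tocopherol animal 1. Smooth muscle actin Acta2 fell by 0.65 ± 0.17 and smooth muscle myosin Myh11 by 0.99 ± 0.27. Tagln (-0.51 ± 0.21) and Pdgfrb (0.29 ± 0.20), the other defining genes of this list, were not called. The smooth muscle sum was 31604 to 32789 against 23000 to 29391.

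Of 18 macrophage markers 6 fell and 1 rose, and the lower count was 2 without alpha-tocopherol animal 2 or 3 and 1 without old controls 1 and 4. Their sum ranged from 45836 to 57580 in controls and from 34865 to 50903 with alpha-tocopherol, which overlap. Lysozyme (Lyz2) fell by 0.90 ± 0.26 (limma adjusted p = 0.018), and its adjusted p was up to 0.0534 without alpha-tocopherol animal 2 or 3. The fractalkine receptor Cx3cr1 rose by 0.58 ± 0.13. Cd68 (-0.15 ± 0.15) and Csf1r (-0.31 ± 0.18), defining macrophage genes as Lyz2 is, were not called. The defining T cell genes Cd3e and Cd3g and the macrophage gene Adgre1 were under the intensity filter and not tested. Of 4 T cell and 6 erythroid markers tested 0 were called. The part of a shift in cell types in any list above was not tested.

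Liver transcripts were called lower with alpha-tocopherol. Of 14 tested liver markers 8 fell and 0 rose, with a median of -0.85. Albumin (Alb) read 1928, 2973, 13004, 7125 and 4808 in controls and 231, 109, 139, 56 and 151 with alpha-tocopherol. It fell by 4.71 ± 0.64 without overlap, and the controls among themselves spanned 1928 to 13004. The serum glycoprotein Ahsg fell by 1.49 ± 0.32 and the urinary protein gene Mup3, of a family with near-identical members, by 1.62 ± 0.36. The summed liver markers were 15670 to 46050 in controls and 9509 to 15694 with alpha-tocopherol. The highest alpha-tocopherol array thus reached the lowest control. The defining liver gene Apoa1 was under the filter, Ttr differed by -0.43 ± 0.37 and was not called, and without alpha-tocopherol animal 3 the list held 5 lower genes. Whether liver RNA reached the control samples was not tested.

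**Figure D5:**
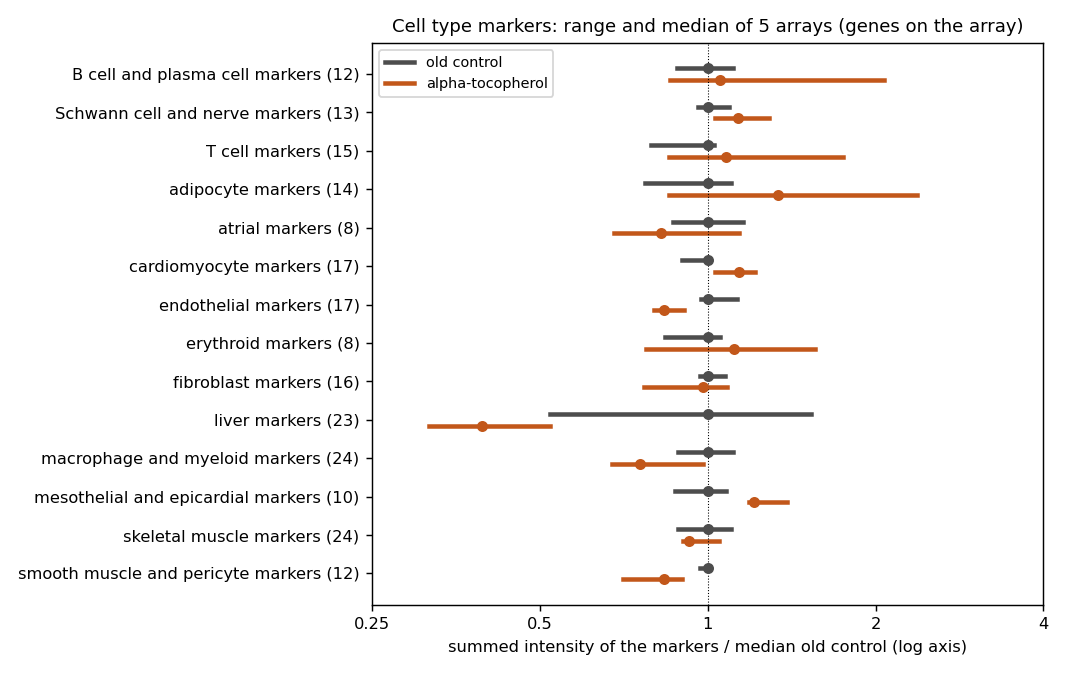
Summed intensity of the markers of each cell type, divided by the median old control, on a log axis; lines give the range and dots the median of 5 arrays per group, with the number of marker genes on the array in parentheses. Endothelial, smooth muscle, cardiomyocyte and mesothelial sums do not overlap between groups, and liver sums meet only at 15670 and 15694. Of 4 mesothelial markers tested 1 was called, clusterin (Clu), which alone read 13427 to 17597 in controls and 18678 to 22973 with alpha-tocopherol. The defining mesothelial gene Upk3b (0.11 ± 0.16) was not called.

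Clock genes fell in 5 of 15 cases and rose in 2. The output gene Dbp read 2286, 2330, 2768, 2118 and 1730 in controls and 1466, 318, 477, 1104 and 1584 with alpha-tocopherol. It fell by 1.34 ± 0.30 without overlap, and alpha-tocopherol animals 2 and 3 were lowest. The repressors Nr1d2 (-0.75 ± 0.20) and Bhlhe40 (-0.62 ± 0.16) fell and the repressor Cry1 rose by 0.76 ± 0.16. No label used here gives the time of day at which tissue was taken. Without alpha-tocopherol animal 3 the list held 3 lower genes, and without old controls 1 and 4 it held 2.

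Among p53 targets and DNA damage genes 6 of 23 fell and 3 rose, 1 of these on an _r_at probe set. Gadd45a, a stress sensor, read 1322, 1206, 1565, 1510 and 1337 in controls and 326, 843, 624, 288 and 682 with alpha-tocopherol. Cyclin G1 (Ccng1) fell by 0.78 ± 0.14 and the autophagy gene Ei24 by 0.72 ± 0.11. The replication clamp Pcna, which also serves DNA repair, read 2718, 2376, 2218, 2220 and 2744 in controls and 737, 1474, 854, 1077 and 932 with alpha-tocopherol. It fell by 1.26 ± 0.16, and neither Gadd45a nor Pcna overlapped between groups. The anti-apoptotic Mcl1 fell by 0.59 ± 0.14. In the list of heme, iron and metallothionein genes 5 of 23 fell and 1 rose, and the lower count was 3 without old control 5, without alpha-tocopherol animal 1 or 3, or without old controls 1 and 4. The first enzyme of heme synthesis, Alas1, fell by 0.49 ± 0.10 and Uros by 0.51 ± 0.10, the latter from 2623 to 2800 in controls to 1716 to 2129.

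A direct test asked where alpha-tocopherol alone differed from the mixture of both tocopherols, whose mice received 500 mg/kg of each. It called 42 of 7453 probe sets (0.564%) and 26 of 5663 genes (0.459%). Both groups were compared with the same old controls above, so their differences from those controls are given side by side only. Sod1 was higher than in the mixture by 1.18 ± 0.27 (limma adjusted p = 0.042), where alpha-tocopherol differed from control by 2.40 and the mixture by 1.22. The mixture arrays were spread widely, at Sod1 intensities of 35700, 49484, 16497, 11558 and 33144. Mixture animals 3 and 4, with the lowest Sod1 of that group, also had its lowest 18S levels (10.755 and 9.904). Animal 4 lay within the control range of 7142 to 14704. Pdxk was higher by 0.51 ± 0.11 and Tmem250-ps by 0.71 ± 0.15. Ctnnb1 (-0.51 ± 0.10), Clip4 (-0.72 ± 0.15), Tnk2 (-1.52 ± 0.29), Pcna (-0.78 ± 0.16), Psmd6 (-0.40 ± 0.09) and Psmb5 (-0.50 ± 0.09, 1 of 2 probe sets) were lower than in the mixture. A further 2 genes, picked after their values were seen, lay on opposite sides of the controls without either being called against them. The clock repressor Nr1d1 differed from control by 0.43 with alpha-tocopherol and by -0.52 with the mixture, and the collagen receptor Ddr2 by 0.85 and -0.90. By contrast Gstm1 (0.10 ± 0.09, limma adjusted p = 0.64) and Alb (-0.38 ± 0.64, limma adjusted p = 0.82) did not pass this test. The mixture holds less alpha-tocopherol as well as added gamma-tocopherol, and the effects of these 2 changes cannot be told apart. The arrays of the 2 supplemented groups also differed without overlap. The 18S level was 12.21 to 12.74 with alpha-tocopherol and 9.90 to 11.98 with the mixture. The hybridization level was 13.321 to 13.778 against 12.393 to 13.319, and the _r_at level 10.84 to 10.99 against 10.68 to 10.80. The part of these levels in the 42 calls was not tested beyond the covariate fits below. The 42 calls depended on the setting. All 42 were called with a pseudocount of 16, 40 with one of 200, 37 after quantile normalization and 26 with the replicate block, but 11 with plain variance moderation and 7 with array weights. The limma test gave 0 calls with the hybridization covariate (820 at an unadjusted p below 0.05), with the 18S covariate (587) and with the 2 groups fitted alone (1071). Leaving out 1 animal gave 0 calls (mixture animal 4, 960 at an unadjusted p below 0.05), 1 (alpha-tocopherol animal 3 or 5), 3 (mixture animal 3), 13 (alpha-tocopherol animal 4) or 18 (alpha-tocopherol animal 1), 24, 26 and 79 (mixture animals 1, 5 and 2), and 41 (alpha-tocopherol animal 2).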

How the data were processed

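Per the labels, polyadenylated RNA from frozen mouse hearts was hybridised to 1-colour oligonucleotide arrays, 1 per animal. The authors deposited 1 table of probe set intensity values per array. The software and normalization are not given in the sources used here; the deposited intensities have trimmed means (2% trimmed) of 1501 to 1501.1 on all arrays, so they had been scaled to one mean. Of 12488 probe sets, 66 are control probe sets and served only as array checks. The other 12422 were put on the log2(intensity + 58) scale, with the 10th percentile of all intensities (58) as the pseudocount. The dimmest 40% by mean were left out, which left 7453. Gene symbols came from the platform annotation table (10833 probe sets with 1 symbol, 396 with several, 1193 with none). Where several tested probe sets name 1 gene, the one with the highest mean stands for it.

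Tests were moderated by limma 3.58.1 in R 4.3.3 on all 20 arrays with group means (16 residual degrees of freedom) and Benjamini-Hochberg adjustment over all tested probe sets. Array checks used exact two-sided permutation tests. The code was tested on simulated data. p-values measure the spread between animals. Replicate numbers are shared between groups, but deviations of same-numbered animals correlated at -0.0105 to 0.0374, so the numbers do not pair animals.

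The comparison, the 61 gene lists (1679 symbols, 1370 on the array, 1119 tested) and the tests were chosen with earlier results of these data known. Genes named are the 12 highest and 12 lowest called differences, up to 4 called members per list, 10 per direction among genes called with each covariate, and fixed antioxidant, heart and lipid genes; the text gives part of this set. Genes outside it are defining genes of a cell type or are said to be chosen after their values were seen. Alternatives were the pseudocount, the filter, scaling, the replicate block, array measures as covariates, array weights and leaving out animals. Leaving out the _r_at probe sets was chosen after seeing the data.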

Additional observations from a re-analysis of the deposited data

Results flagged for a closer look

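Of 280 groups of 5 arrays checked, 17 held 1 array far from the other 4 by Dixon's test, 7 among controls and 10 among alpha-tocopherol arrays, where chance flags about 1 in 20 groups. Old control 3 was low in Cavin1 (2459) and Hnrnpk (1227), high in Hspa8 (13815), and high in the Gapdh 3' minus 5' signal (1.21 on the log2 scale). Old control 4 was low in Eef2 (17607) and Ccng1 (6147) and old control 5 stood apart in Nppa (28852). Alpha-tocopherol animal 1 stood apart in Eef2 (26381), Myh11 (1181) and Bhlhe40 (1747). Animal 3 stood apart in Psmd14 (1047), Psmb5 (3884), Igf1 (9771) and Cdh5 (2453), and animal 5 in Loxl1 (1972), Tnnt2 (87444) and Psma4 (4385).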

How the results depend on the processing

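The count of called probe sets (1619) lay within 1.5 times of itself under every alternative pseudocount, filter, scaling, array weighting and variance setting run (1546 to 1804), and with the replicate block (1578, 1500 of them shared), which was fitted although the numbers do not pair the animals. Adding the hybridization level gave 144 calls (48 higher, 96 lower) and adding the 18S level 142 (44 higher, 98 lower). Both levels together gave 0, and leaving out old controls 1 and 4 gave 981 (421 higher, 560 lower). Leaving out 1 animal gave 1179 to 1556. Without _r_at probe sets 1459 were called. For alpha-tocopherol minus both tocopherols the 42 calls became 43 and 40 with pseudocounts of 16 and 200, 39 after quantile normalization, 34 with the replicate block, 38 without _r_at probe sets, 11 with no filter, 24 with a filter at 20%, 23 with medians aligned, 11 with plain variance moderation, 7 with array weights, 0 with only the groups compared, 0 with either covariate and 1 with both, and 0 to 79 when 1 animal was left out. The Gapdh 3' minus 5' difference ran from -0.174 to 0.166 when 1 animal was left out, the latter without old control 3.

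With both covariates together the sign turned in Acaa2 (-0.0128), Actc1 (-0.491), Cox6a2 (-0.203), Eci1 (-0.0249), Lpl (-0.146), Myh6 (-0.386), Myl2 (-0.248), Tnni3 (-0.252), Tnnt2 (-0.0183) and Txn1 (0.0688). With the hybridization covariate it turned in Actc1 (-0.224), Lpl (-0.0275), Myh6 (-0.244) and Tnni3 (-0.0457), and after quantile normalization in Actc1 (-0.138), Myh6 (-0.126) and Tnni3 (-0.049). The cause was not tested. Of 129 called genes followed, 122 kept their call whichever animal was left out.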
